A study of Mus musculus with 3 samples.

Results

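Neuropeptide genes of enteric sensory neurons and interneurons, 6 of the 33353 genes listed, were followed through all 2060 neurons of the small intestine of Ednrb-null mice. They are Nmu (neuromedin U), Calca and Calcb (the alpha and beta forms of calcitonin gene-related peptide, CGRP), Cck (cholecystokinin), Sst (somatostatin) and Grp (gastrin-releasing peptide). They were taken by their symbols, with no threshold on a measured value. Single-cell RNA-seq was performed on 1 library from each of 3 Ednrb-/- mice (labelled Ednrb-KO, C57BL/6) at 14 days of age. The paper lists the Ednrb and reporter lines as stocks of mixed strain background, which the label does not show. Every mouse carried Wnt1-Cre and a GCaMP5-tdTomato reporter, so that tdTomato marked cells descended from the neural crest, and the sorted cells came from the longitudinal muscle and myenteric plexus of the whole small intestine. All mice belonged to the same condition and no wild-type mouse was analysed here, so no value bears on the loss of Ednrb. The table held only cells called neurons in the study.

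Enteric neurons pass signals to each other and to muscle with a small transmitter such as acetylcholine or nitric oxide together with peptides cut from larger precursors. Neuromedin U and CGRP are known from the intrinsic sensory neurons of the gut, which respond to stretch and to the contents of the lumen. Somatostatin, cholecystokinin and gastrin-releasing peptide are known from interneurons and some motor neurons, and somatostatin and cholecystokinin are also made by endocrine cells of the gut lining.

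The 2 CGRP genes lie close together on mouse chromosome 7 and their peptide-coding exons are nearly the same, so the coding part of exon 4 of each is shown to let the reader judge how well UMIs of one can be told from the other. A UMI, or unique molecular identifier, marks 1 captured RNA molecule. The sequences are those of GENCODE M21 on GRCm38, written in the direction of the transcript, with capitals at bases that differ or have no partner in the alignment. Calca-201 is read from the minus strand at chr7:114632443-114632599 and Calcb-201 from the plus strand at chr7:114721975-114722134.
Calca-201 exon 4: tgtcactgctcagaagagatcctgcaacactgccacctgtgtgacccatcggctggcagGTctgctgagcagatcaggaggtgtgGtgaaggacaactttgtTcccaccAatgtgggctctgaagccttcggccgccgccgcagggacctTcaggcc
Calcb-201 exon 4: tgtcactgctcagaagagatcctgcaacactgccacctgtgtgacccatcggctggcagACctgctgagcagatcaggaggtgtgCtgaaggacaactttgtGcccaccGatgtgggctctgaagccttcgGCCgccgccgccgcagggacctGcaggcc
Of 160 aligned positions 151 were identical (94.4%), with 6 substitutions and 3 bases in a gap. The longest run that the whole transcripts share was 60 bases, and it ended 553 bases from the end of Calca-201 and 586 bases from the end of Calcb-201. Their last exons, 428 and 458 bases long, shared no run over 12 bases. The deposited values do not say where along a transcript a read fell, so a wrong assignment between these genes was not measured, and the UMIs of Calca cannot separate its CGRP transcript from its calcitonin transcript.

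On GRCm38 Nmu lies at chromosome 5, 76333495 to 76363788 on the minus strand, Cck at chromosome 9, 121489824 to 121495694 on the minus strand, and Sst at chromosome 16, 23889573 to 23890958 on the minus strand. Nmu overlaps 4930432L08Rik on the opposite strand, and no source used here says whether the counting used strand. Grp lies at chromosome 18, 65872820 to 65886596 on the plus strand and overlaps AC152076.4 on the opposite strand, a gene that the table does not list, so the same limit applies.

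The libraries differed in depth and in composition. The median depth was 3734.5 UMIs in the 354 cells from mouse 1, 9599.5 in the 1050 from mouse 2 and 9578.5 in the 656 from mouse 3, and 2 cell barcodes occurred in more than 1 library. The targeted gene Ednrb had at least 1 UMI in 42.7%, 68.9% and 58.8% of the cells of mice 1, 2 and 3, which does not check the genotype, since UMIs per gene do not show which exons were present. A median of 9 of 10 neuronal markers was found per cell. Epithelial Epcam and Cdh1 and the endocrine factor Neurod1 were at 0 in all 2060 cells (a share of at most 0.146%), and Vil1 was found in 1 cell. Smooth muscle markers stood at 76.6 UMIs per 10000 in mouse 1, at 19.1 in mouse 2 and at 13.0 in mouse 3, and 82 cells, 58 of them from mouse 1, held 150 or more. Values are therefore given for each mouse, and with and without mouse 1 where a result rested on it.

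Among the sensory peptides, Calcb was found in the most cells and Calca in the fewest. In mice 1, 2 and 3, Calcb had at least 1 UMI in 15.5%, 14.6% and 24.7% of neurons (18.3% ± 5.59, SD, n = 3 mice). Its level was 2.06, 0.805 and 1.92 UMIs per 10000 UMIs. Mouse 2 was lowest in both. Nmu was found in 8.76%, 7.62% and 13.6% of neurons (9.98% ± 3.16, SD, n = 3), at 0.891, 0.226 and 0.569 UMIs per 10000. Calca was found in 5.37%, 3.33% and 6.10% (4.93% ± 1.43, SD, n = 3), at 0.236, 0.0541 and 0.103 UMIs per 10000. For all 3 of these genes mouse 1, the shallowest library, had the highest level and mouse 2 the lowest.

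The interneuron peptides followed another order. Grp was found in 5.65%, 15.8% and 19.4% of neurons (13.6% ± 7.12, SD, n = 3), at 0.695, 1.41 and 2.34 UMIs per 10000. Sst was found in 2.82%, 10.0% and 10.98% (7.93% ± 4.45, SD, n = 3), at 0.282, 1.47 and 0.543 UMIs per 10000. Mouse 1 was lowest for both genes. Cck was the rarest, in 2.54%, 2.48% and 6.71% of neurons (3.91% ± 2.42, SD, n = 3) and at 0.0917, 0.140 and 0.129 UMIs per 10000. When each cell was thinned to 3000 UMIs, which leaves out 178 shallower cells, the mean shares were 12.8% for Calcb, 8.82% for Grp, 6.61% for Nmu, 4.20% for Sst, 2.48% for Calca and 2.41% for Cck. Before thinning, the shares of Calcb and Grp, the leading pair, and of Calca and Cck, the last pair, differed by less than their SD over mice. After thinning that held for Calca and Cck but not for Calcb and Grp, whose SDs were 3.93 and 3.59.

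**Figure D1:**
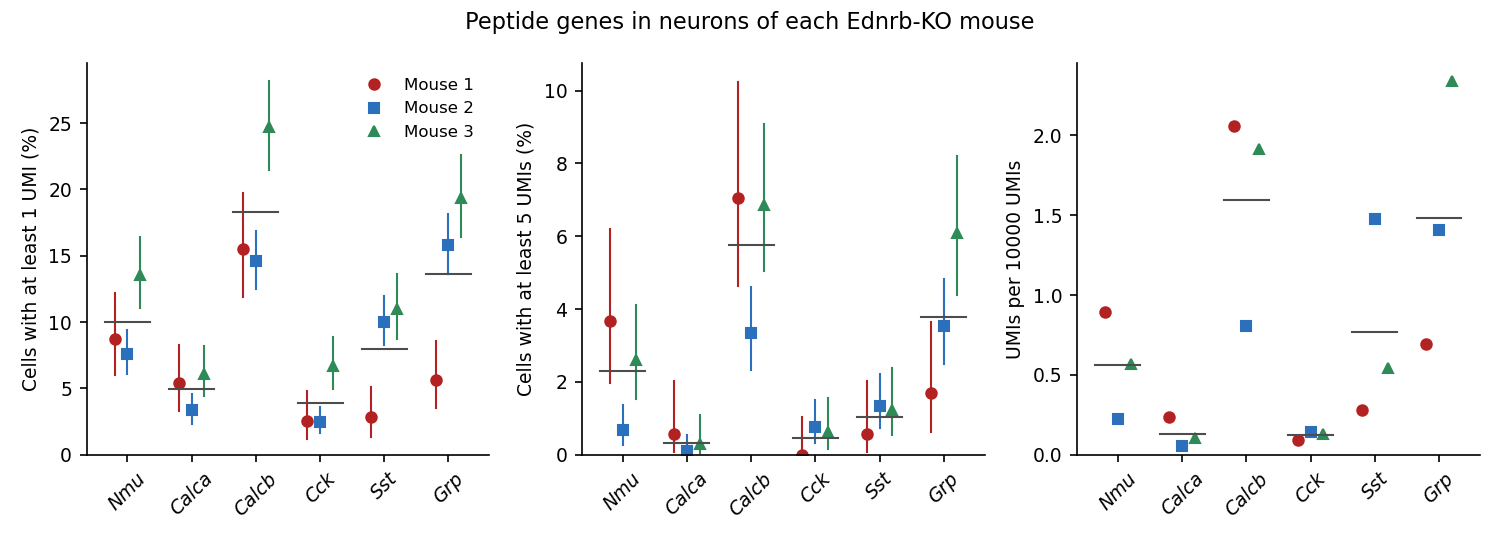
Share of neurons with at least 1 UMI (left) and at least 5 UMIs (middle) of each peptide gene, and UMIs per 10000 UMIs (right), in each of 3 Ednrb-KO mice. Points are mice, vertical lines are 95% exact binomial intervals (counting error only) and grey bars are means over mice; mouse 1 is highest in level for Nmu, Calca and Calcb and lowest for Cck, Sst and Grp.

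At least 1 of the 6 genes was found in 807 cells, which were 20.6% of neurons in mouse 1, 37.9% in mouse 2 and 51.2% in mouse 3. Of these, 520 held a single member, 179 held 2 members, 72 held 3, 31 held 4 and 5 cells held 5. No cell held all 6. Cells with 2 or more members outnumbered those with 1 in mouse 1 (53 against 20) but not in mouse 2 (109 against 289) or mouse 3 (125 against 211).

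For some members a share counted at 1 UMI did not stand clear of background. In the 82 cells with 150 or more smooth muscle marker UMIs per 10000 (median 3993.5 UMIs), Nmu was found in 4.88% (95% exact binomial interval 1.34 to 12.02), Calca in 2.44% (0.297 to 8.53), Calcb in 3.66% (0.761 to 10.3) and Grp in 6.10% (2.01 to 13.7). Cck and Sst were found in 0 of 82 (0 to 4.40). In the other 1978 cells (median 8392 UMIs) the shares were 9.91% for Nmu, 4.65% for Calca, 18.6% for Calcb, 3.99% for Cck, 9.45% for Sst and 15.6% for Grp. Pooled, the shares of Nmu, Calca and Cck lay within the intervals of the muscle-rich cells and those of Calcb, Sst and Grp above them. The mice differed in this, and 58 of the 82 muscle-rich cells came from mouse 1. There Nmu was found in 1.72% of muscle-rich cells (0.0436 to 9.24) against 10.1% of the others, Calcb in 1.72% (0.0436 to 9.24) against 18.2%, Calca in 1.72% (0.0436 to 9.24) against 6.08%, and Grp in 0 of 58 against 6.76%. In mouse 2, with 18 muscle-rich cells of median depth 15200.5, Grp was found in 22.2% of them against 15.7% of the others, and in mouse 3, with 6, in 16.7% against 19.4%. In mice 2 and 3 the shares of all 6 members lay within the wide intervals of these few cells. With only 18 and 6 such cells, the comparison could not tell expression at 1 UMI from background there and decides nothing. In mouse 3 the only positive muscle-rich cells for Nmu, Calcb and Grp held 6, 6 and 7 UMIs of the gene. The muscle-rich cells were not free of neuronal RNA, as 40.2% held the neuronal tubulin gene Tubb3 and 2 of the 4 with Nmu held 5 or more UMIs of it.

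Pooled over mice, most positive cells held exactly 1 UMI, yet for each member but Calca most UMIs came from few cells. A single UMI was all that 144 of 187 Sst-positive cells held, as did 130 of 200 for Nmu, 66 of 94 for Calca, 172 of 313 for Grp, 195 of 370 for Calcb and 40 of 79 for Cck. Mouse 1 differed, as cells with 1 UMI were 6 of its 31 Nmu-positive, 13 of its 55 Calcb-positive, 5 of its 20 Grp-positive and 4 of its 10 Sst-positive cells, and in mouse 2 they were 9 of 26 Cck-positive cells. Cells with 5 or more UMIs of a gene are called high for it here, a limit chosen after the values were seen. Only 24 cells were high for Sst, but they held 90.0% of its 1917 UMIs. The 83 Grp-high cells held 89.0%, the 105 Calcb-high cells 84.2%, the 37 Nmu-high cells 70.5% and the 12 Cck-high cells 54.5%. Calca was lowest when pooled, as only 5 cells were high and they held 22.8% of its 158 UMIs. The pooled value of Cck rested on mouse 2, where the first and second cells held 38 UMIs each. There the Cck-high cells held 75.2% of its UMIs, against 27.7% in mouse 3 and 0% in mouse 1. For Calca the value in mouse 3 was 24.2%.

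Somatostatin was the most uneven of the 6. A single neuron of mouse 2 held 542 Sst UMIs of its 15306, or 354 per 10000, and that cell alone gave 28.3% of all Sst UMIs. The next held 406 and 146, both in mouse 2 as well. The top cell of Grp held 246 UMIs (mouse 3), that of Calcb 96 (mouse 3), that of Nmu 50 (mouse 3), that of Cck 38 (mouse 2) and that of Calca 10 (mouse 3). The top 3 Sst cells also held 8, 4 and 22 UMIs of Calcb and 34, 18 and 26 of Grp.

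**Figure D2:**
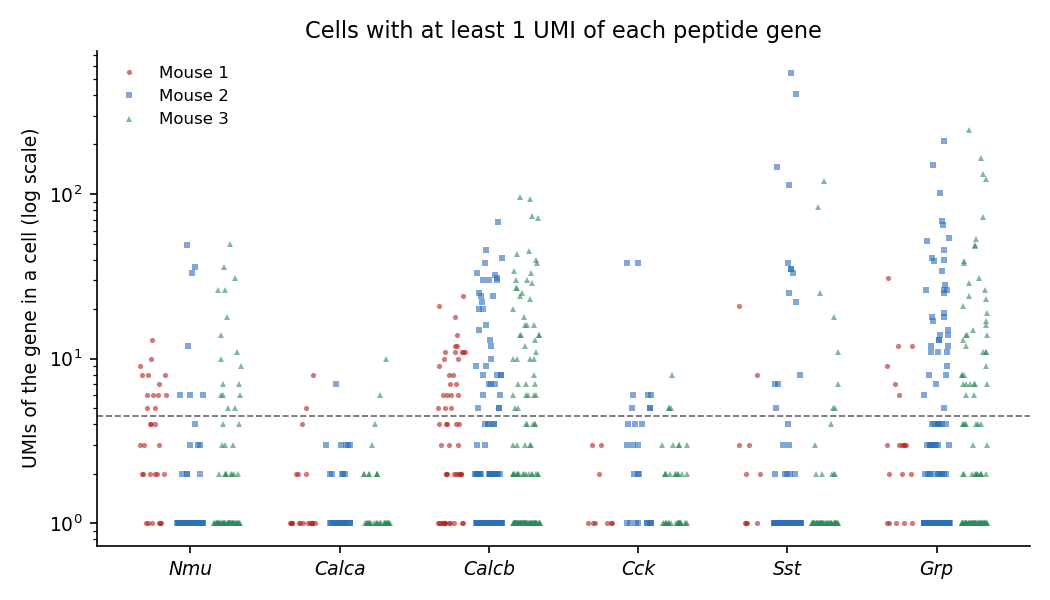
UMIs of each peptide gene (vertical, log scale) in every neuron with at least 1 UMI, by mouse; each point is 1 cell, spread sideways for clarity, and the dashed line separates cells with 5 or more UMIs. Rows of cells at 1 UMI lie under a sparse upper group, which reaches 542 UMIs for Sst and only 10 for Calca.

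High cells of the sensory peptides were found in every mouse. In mice 1, 2 and 3, Calcb-high cells made up 7.06%, 3.33% and 6.86% of neurons, and Nmu-high cells 3.67%, 0.667% and 2.59%. Grp-high cells made up 1.69%, 3.52% and 6.10%, and Sst-high cells 0.565%, 1.33% and 1.22%. Cck-high cells were 8 in mouse 2, 4 in mouse 3 and 0 of 354 in mouse 1, which allows up to 0.847%. The median depth of high cells was 10442 UMIs for Nmu, 9813 for Calcb, 13155 for Cck, 9540 for Sst and 12127 for Grp, against 8171 for the 1879 cells that were high for none, and the part of depth in reaching 5 UMIs was not tested.

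The question which peptides were made by the same neurons was addressed by counting cells that held both members of each of the 15 pairs. The count was set beside the number that independence gives within each mouse and each of 5 strata of its cells by depth, with a 95% exact Poisson interval on the observed count. Cells of a mouse are not replicates, so the ratios carry no p-value and the intervals cover counting error only. At 1 UMI, 10 of the 15 ratios had intervals above 1 and 0 below. Pairs of other genes were not counted, so how often such pairs lie above 1 is not known. The strata cover mouse and depth but not the glial or muscle RNA in a cell, whose part was not tested.

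Nmu and Calcb, both sensory peptides, shared 99 cells where 41.5 were expected, a ratio of 2.39 (1.94 to 2.90). The ratio was 4.39 in mouse 1, 2.18 in mouse 2 and 1.92 in mouse 3. When 5 UMIs of both were required, 30 cells held both against 3.65 expected, a ratio of 8.23 (5.55 to 11.7). That is 81.1% of the 37 Nmu-high cells and 28.6% of the 105 Calcb-high cells. These cells came from every mouse, and were 9 of the 13 Nmu-high cells in mouse 1, 6 of 7 in mouse 2 and 15 of 17 in mouse 3. Cells high for Nmu were thus mostly high for Calcb too, least so in mouse 1, while most Calcb-high neurons were not high for Nmu.

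Calcb and Grp formed the other large overlap. At 1 UMI 131 cells held both, a ratio of 2.18 (1.82 to 2.59), and at 5 UMIs 34 cells did, a ratio of 6.23 (4.31 to 8.71). The latter were 32.4% of Calcb-high and 41.0% of Grp-high cells. They were 16 in mouse 2, 18 in mouse 3 and 0 in mouse 1, where 0.566 was expected. Sst and Grp had a ratio of 1.36 (0.979 to 1.84) at 1 UMI and of 10.2 (4.90 to 18.8) at 5 UMIs, with 10 cells. Calcb and Sst likewise rose from 1.74 (1.34 to 2.23) to 10.1 (4.84 to 18.6), again with 10 cells.

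Other pairs were not found together among high cells. Nmu with Cck, Nmu with Sst, Calca with Cck, Calca with Sst and Cck with Sst shared 0 cells at 5 UMIs. Fewer than 1 cell was expected for each, so that a count of 0 says little. For Nmu and Sst the ratio at 1 UMI was 0.844 (0.483 to 1.37), with 16 cells against 19.0. Calca, the alpha form of CGRP, shared 55 of its 94 positive cells with Calcb, a ratio of 2.74 (2.07 to 3.57), and 43 with Grp, a ratio of 2.78 (2.01 to 3.75). Any UMIs of Calcb counted as Calca would raise the first of these and, since Calcb and Grp shared cells, the second too, and such wrong assignment was not measured.

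**Figure D3:**
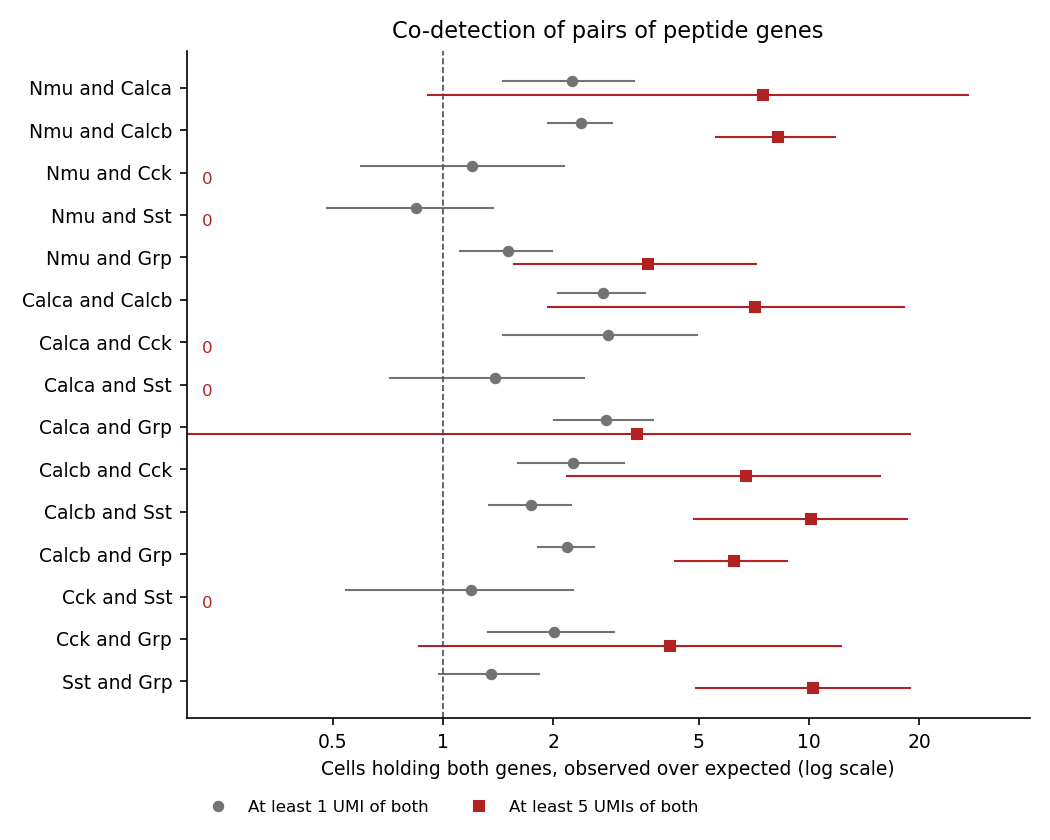
Cells that hold both genes of a pair, observed over expected (horizontal, log scale), at 1 UMI or more of both (grey circles) and at 5 UMIs or more (red squares), over 3 mice pooled. Lines are 95% exact Poisson intervals, a red 0 marks pairs with no such cell, and the dashed line is a ratio of 1 (the lower end for Calca with Grp runs off the axis); Nmu with Calcb and Calcb with Grp stand above 1 at both limits.

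By combination, the 181 cells that were high for any member fell mainly into a few kinds. Grp alone was high in 47 cells, Calcb alone in 43, Nmu with Calcb in 21 and Calcb with Grp in 15. Sst alone was high in 12 cells and Sst with Calcb and Grp in 8, the latter in mice 2 and 3 only. Cck alone was high in 7 cells and Nmu alone in 7, and Nmu, Calcb and Grp together in another 7.

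The question whether these peptides divide with transmitter or lineage markers was addressed with 4 genes that the study used to separate its neurons. Nos1 makes nitric oxide and Chat makes acetylcholine, and Etv1 and Bnc2 encode transcription factors that mark 2 groups of enteric neurons. A neuron was Nos1-only with at least 1 UMI of Nos1 and none of Chat (962 cells) and Chat-only in the reverse case (277 cells). Likewise 1075 cells were Etv1-only and 332 were Bnc2-only. UMIs were summed per mouse and class, and differences were tested with limma on log2(CPM + 10) over all genes with a mean of at least 10 CPM (UMIs scaled to equal library totals, where 1 UMI per 10000 equals 100 CPM), with the mouse as a block.

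Between Nos1-only and Chat-only neurons 0 of the 6 members passed the test at an adjusted p under 0.05, where 2.52% of all 9578 genes tested did (1.19% higher in Nos1-only and 1.33% higher in Chat-only cells). With limma voom the count was also 0. Nmu, Calca and Sst had unadjusted limma p-values under 0.05, as did 1853 of all 9578 genes tested. Nmu stood at 0.330, 0.0869 and 0.534 UMIs per 10000 in Nos1-only cells of mice 1, 2 and 3 and at 2.27, 0.403 and 0.819 in Chat-only cells, higher in Chat-only cells in each mouse (log2 difference -1.47 ± 0.36 SE, limma adjusted p = 0.0806). Calca stood at 0.0660, 0.0308 and 0.0787 in Nos1-only cells and at 1.51, 0.0738 and 0.225 in Chat-only cells (log2 difference -1.52 ± 0.51, limma adjusted p = 0.166). The high Chat-only values of mouse 1 rested on 16 cells. With classes set at 2 UMIs, which leaves 2 such cells, the differences were -0.34 for Nmu and -0.17 for Calca (limma adjusted p = 0.794 and 0.831).

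Sst leaned the other way, with a log2 difference of 0.74 ± 0.28 (limma adjusted p = 0.215). It stood at 0.165, 1.02 and 0.599 UMIs per 10000 in Nos1-only cells and at 0.151, 0.604 and 0.153 in Chat-only cells. In mouse 2 a single cell held 72.4% of the Nos1-only UMIs of Sst, and without the top cell of each member in each mouse (18 cells) the difference was 0.27. It was 0.14 without glia-rich cells and cells with 7 of 10 smooth muscle markers. For Grp (0.62 ± 0.67), Calcb (-0.36 ± 0.38) and Cck (-0.75 ± 0.46) the 95% intervals of the log2 difference ran from -0.94 to 2.18, from -1.25 to 0.53 and from -1.81 to 0.32. Without mouse 1 the test called 2066 of 9364 genes in place of 241 of 9578. Nmu (-0.98, limma adjusted p = 0.00978), Sst (1.07, 0.0021) and Grp (1.67, 0.00405) were among these many genes.

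Between Etv1-only and Bnc2-only neurons Grp was higher in Etv1-only cells, and it was the 1 member of 5 tested that passed, where 2.52% of all 9630 genes were called higher in Etv1-only cells, 1.77% higher in Bnc2-only cells and 4.29% in either direction. Grp stood at 1.26, 1.58 and 4.01 UMIs per 10000 in the Etv1-only cells of mice 1, 2 and 3. In the Bnc2-only cells it stood at 0, 0.366 and 0.458, and the 0 rests on 28 cells of mouse 1, which allows a share of positive cells of up to 10.7%. All 3 mice went the same way. The log2 difference was 2.83 ± 0.40 SE, or 7.11-fold on this scale (limma adjusted p = 0.0110). The adjusted p was 0.0602 with a pseudocount of 1 CPM, 0.170 without the mouse block and 0.108 without mouse 3.

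Grp-high cells made up 53 of 1075 Etv1-only cells (4.93%) and 5 of 332 Bnc2-only cells (1.51%), with median depths of 8521 and 9346 UMIs. Without the same 18 top cells the log2 difference of Grp was 2.43 (limma adjusted p = 0.0213), and without the 82 muscle-rich cells it was 2.85 (limma adjusted p = 0.00703).

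Sst showed the opposite order without passing the test. It stood at 0.202, 0.232 and 0.193 UMIs per 10000 in Etv1-only cells and at 1.47, 1.81 and 0.991 in Bnc2-only cells (log2 difference -2.27 ± 0.70, limma adjusted p = 0.130). A few cells carried this, as the only positive cell among the 28 of mouse 1 held 21 UMIs, and without the top cells the difference was -0.93 (limma adjusted p = 0.544). Without mouse 1 the test called 2765 of 9333 genes in place of 413 of 9630. Sst (-2.21, limma adjusted p = 2.26e-06), Calcb (1.32, 1.1e-05) and Cck (0.89, 0.00217) were among these many genes. Nmu (0.19 ± 0.36), Calca (0.21 ± 0.35) and Calcb (0.69 ± 0.40) did not pass with all 3 mice, where Cck fell below the filter.

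Nmu was highest in cells in which neither Etv1 nor Bnc2 was found. In these 418 cells (median 5200.5 UMIs) it stood at 1.96, 1.11 and 2.40 UMIs per 10000 in mice 1, 2 and 3. In the Etv1-only cells it stood at 0.202, 0.102 and 0.277, and in the Bnc2-only cells at 0.351, 0.131 and 0.04997. Cells with both held 0.276, 0.150 and 0.389. In each mouse the value was highest in the cells with neither gene, and how many other genes were so ordered was not counted. Calcb was at 4.02, 1.29 and 4.41 in these cells and at 0.780, 0.851 and 1.73 in Etv1-only cells, which overlap. This comparison was not among the tests and is a description.

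**Figure D4:**
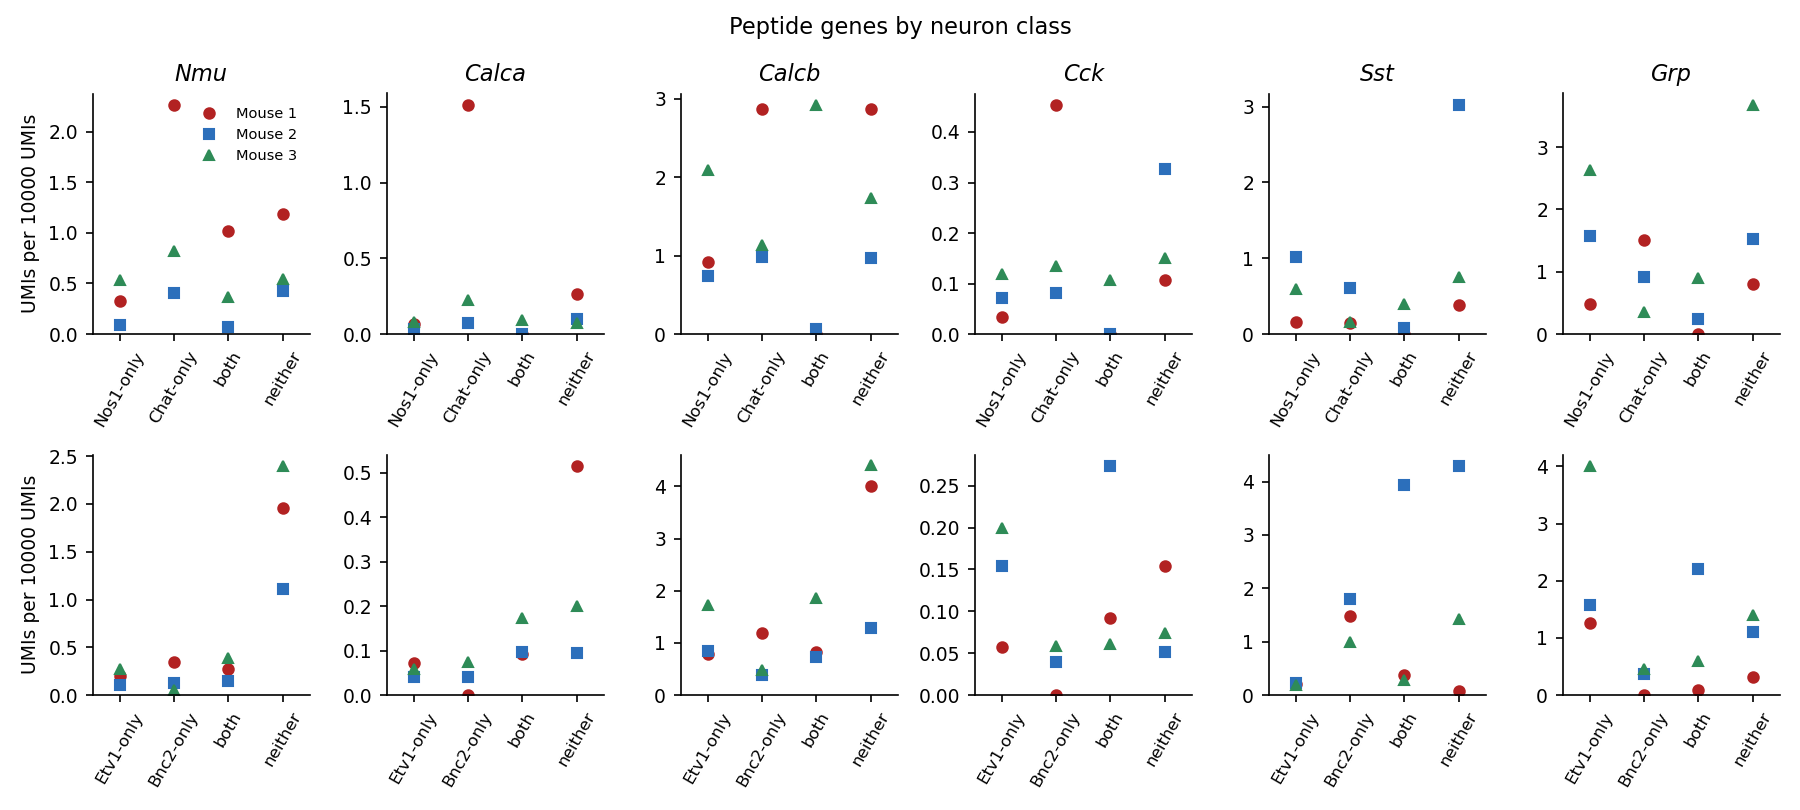
UMIs per 10000 UMIs of each peptide gene in neurons split by Nos1 and Chat (top) and by Etv1 and Bnc2 (bottom); each point is the summed value of 1 mouse and each panel has its own vertical scale. Grp stands higher in Etv1-only than in Bnc2-only cells in all 3 mice, and Nmu is highest where neither Etv1 nor Bnc2 was found.

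The high cells were then described by genes of fixed lists. They were picked by the level of the peptides, so their other genes are given as values with no test. Neuronal markers summed to between 82.6 and 186 UMIs per 10000 in the cells high for each member and to 67.9 in the cells high for none, while smooth muscle markers stood at 5.94 to 24.0 against 22.05 and glial markers at 2.38 to 27.1 against 33.1. The part of these differences in the values that follow was not tested. Among the 37 Nmu-high cells, 23 held neither Etv1 nor Bnc2, 9 were Etv1-only, 5 held both and 0 were Bnc2-only, against 16.1% Bnc2-only over all cells. Over all cells of mice 1, 2 and 3, 161 of 354, 594 of 1050 and 320 of 656 were Etv1-only. Both genes or neither were held by 165, 274 and 214 of these cells. By transmitter gene, 19 of the 37 Nmu-high cells held neither Nos1 nor Chat. Over all cells of mice 1, 2 and 3, 208, 371 and 242 held both of these or neither. The vesicular acetylcholine transporter Slc18a3 was nevertheless found in 31 of the 37 Nmu-high cells and the choline transporter Slc5a7 in 30. Among all neurons these 2 genes were found in 40.3% and 47.3%.

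In the 30 cells high for both Nmu and Calcb, each of the 9 listed markers of intrinsic sensory neurons stood at a higher level than in the cells high for no member, in each of the 3 mice. Nog, which encodes the BMP inhibitor Noggin, was found in 7 of 9, 5 of 6 and 15 of 15 of them in mice 1, 2 and 3, at 3.34, 4.06 and 3.62 UMIs per 10000. In the 1879 cells high for no member it stood at 0.120, 0.0282 and 0.0252. The leukotriene receptor gene Cysltr2 was found in 20 of the 30 (1.57 UMIs per 10000, against 0.0206 in the cells high for none) and the chloride channel gene Ano2 in 19 (1.91 against 0.0261). The serotonin receptor subunits Htr3a and Htr3b were found in 29 and 19 of the 30, at 5.36 and 1.14 UMIs per 10000 against 0.860 and 0.101. Calb2, Cux2, Avil and Dlx3 were found in 27, 18, 12 and 4 of the 30, at 11.2, 1.08, 0.456 and 0.114 UMIs per 10000 against 4.80, 0.108, 0.0176 and 0.00607. In the 5 Calca-high cells Calb2 was lower, at 1.39. The cells high for Nmu and Calcb had a median of 13181.5 UMIs against 8171. Their neuronal markers summed to 129 UMIs per 10000 against 67.9. The part of depth and composition in these differences was not tested.

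Of the sensory markers, Nog and Cysltr2 went with abundant Nmu and much less with a single UMI of it. Of the 130 cells with exactly 1 Nmu UMI, 10 held Nog (7.69%) and 6 held Cysltr2 (4.62%), and 4 of those 10 came from the 6 such cells of mouse 1. In the 26 cells high for Grp and Calcb but not Nmu, Nog was found in 4 and Cysltr2 in 3. In the 49 cells high for Calcb but for neither Nmu nor Grp, Nog was found in 15 and Cysltr2 in 11.

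Calcrl, which encodes the receptor of CGRP, was found in 15 of the 30 cells high for Nmu and Calcb, at 1.25 UMIs per 10000, and in 10.7% of the cells high for none, at 0.206. It was found in 2 of the 26 cells high for Grp and Calcb. Ramp1, the partner that makes this receptor bind CGRP, was found in 45.8%, 64.6% and 62.0% of all neurons of mice 1, 2 and 3.

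Neurons with abundant Grp and little Calcb held other peptides. In these 49 cells Cartpt was found in 44, Gal in 42 and Vip in 40, all peptides known from nitrergic enteric neurons. Among all neurons they were found in 50.5%, 78.8% and 53.8%. The levels in the 49 cells were 60.1, 202.1 and 15.7 UMIs per 10000, against 7.61, 42.6 and 4.66 in the cells high for no member. In mouse 1, with 6 such cells, Gal was at 4.60 where the cells high for none had 25.2, so Gal did not hold its direction there. In the 26 cells high for Grp and Calcb, Cartpt stood at 15.9 and Vip at 5.29. Of all 83 Grp-high cells, 53 were Etv1-only and 49 were Nos1-only. Over all cells of mice 1, 2 and 3, 161 of 354, 594 of 1050 and 320 of 656 were Etv1-only. Nos1-only cells were 130, 531 and 301 of the same 354, 1050 and 656 cells. Cckar, a receptor of cholecystokinin, was found in 26 of the 83, which were 3 of 6, 9 of 37 and 14 of 40 in mice 1, 2 and 3, against 4.95% of the cells high for none.

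Sst-high cells were mixed. By lineage marker, 8 of the 24 were Bnc2-only, 6 Etv1-only, 4 held both and 6 neither. Sstr1, which encodes a somatostatin receptor, was found in 13 of them and in 10.8% of all neurons. Th, which encodes the enzyme that makes the precursor of dopamine, was found in 17 cells of the table, none in mouse 1, and 8 of these were Sst-high. The 17 cells together held only 28 Th UMIs. Of the 12 cells high for Sst together with Calcb or Grp, 6 held Th, 3 in mouse 2 and 3 in mouse 3. Of the 12 high for Sst alone, 2 did. The median depth was 12807.5 UMIs in the former and 5518 in the latter, 2 of which came from mouse 1, and the part of depth in this was not tested. The kinds overlap, since 8 cells high for Sst, Calcb and Grp also count among the 26 high for Grp and Calcb.

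Among the 12 Cck-high cells, 10 were Etv1-only and 0 were Bnc2-only. Of all cells of mice 2 and 3, 594 of 1050 and 320 of 656 were Etv1-only. Gal was found in 11 of the 12 and in 78.8% of all neurons. Its level in the Cck-high cells was 152 UMIs per 10000 in mouse 2 and 0.778 in mouse 3. The receptors Cckar and Cckbr were found in 1 and in 0 of the 12.

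**Figure D5:**
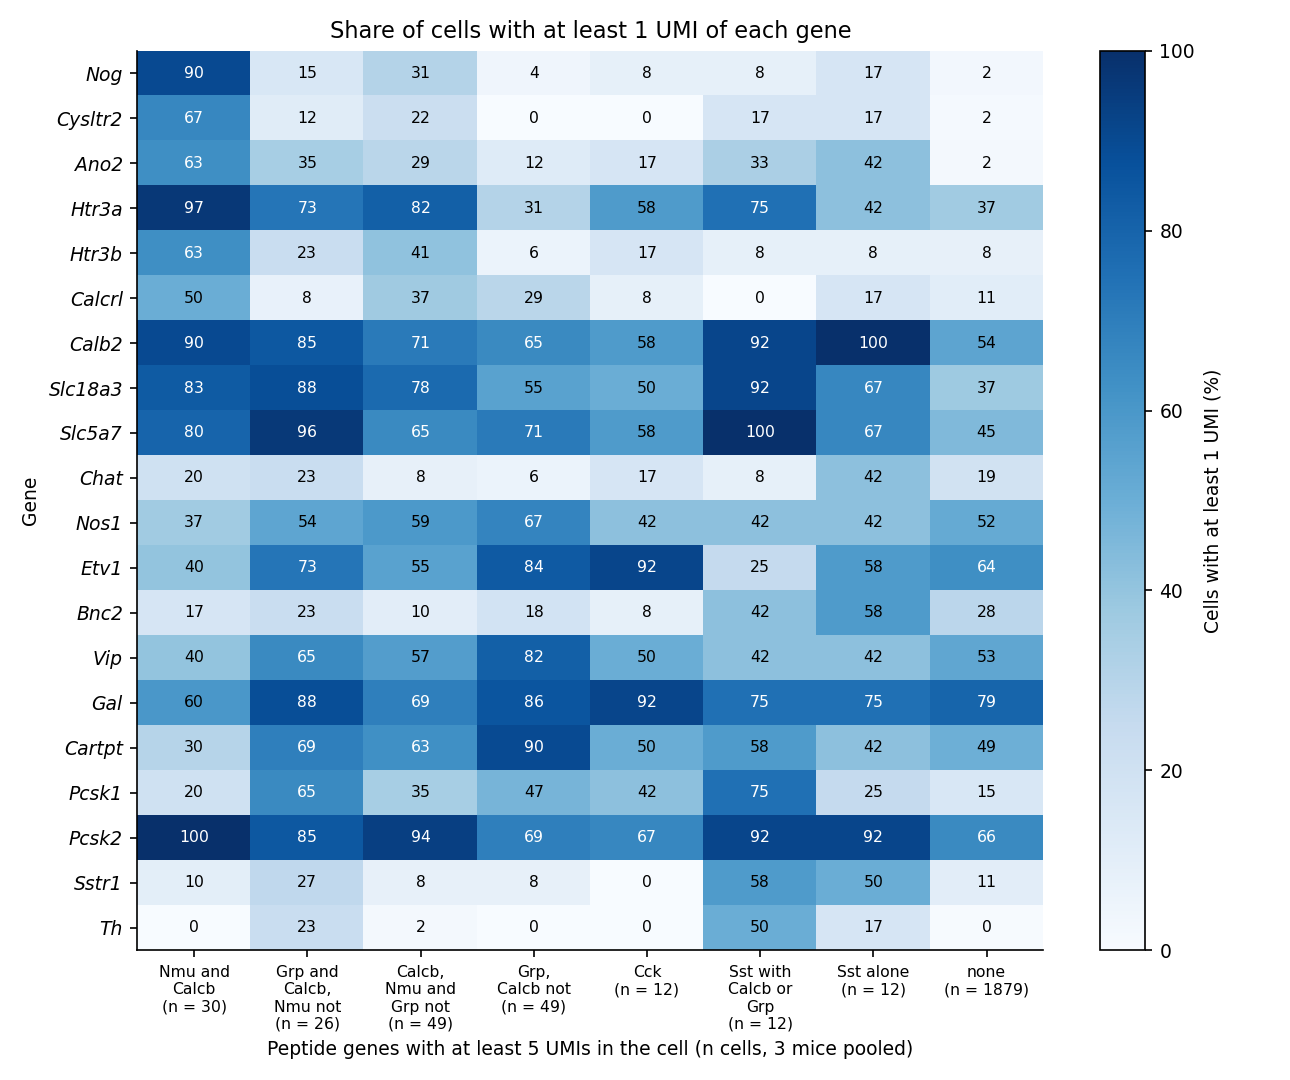
Share (%) of cells with at least 1 UMI of each gene (rows) in cells with 5 or more UMIs of the peptides named under each column, and in the cells with 5 UMIs of none, with 3 mice pooled; rows were picked from the fixed lists and markers after the values were seen. Nog, Cysltr2 and Htr3b are most common in cells high for Nmu and Calcb, and Th in cells high for Sst with Calcb or Grp.

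Of 17 receptor genes for these peptides 7 were found in at least 5% of neurons. Besides Ramp1 and Calcrl (12.48% of all cells) these were Ramp2 (13.6%), Ramp3 (5.58%), Sstr1 (10.8%), Sstr2 (5.19%) and Cckar (6.21%). The receptors of neuromedin U were near absent, with Nmur1 in 6 cells and Nmur2 in 24, or 3.11%, 0.286% and 1.52% of the neurons in mice 1, 2 and 3. Grpr, the receptor of gastrin-releasing peptide, was found in 16 cells. Calcr and Brs3 were found in 0 of 2060.

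Of the 5 receptor genes that passed the filter, 1 was called in each contrast. Calcrl was higher in Chat-only than in Nos1-only cells (0.682 against 0.152 UMIs per 10000 as means over mice, log2 difference -1.60 ± 0.23, limma adjusted p = 0.0165). It was also higher in Bnc2-only than in Etv1-only cells (0.384 against 0.140, log2 difference -0.99 ± 0.20, limma adjusted p = 0.0355). The median log2 difference of the 5 was -0.35 and -0.18, beside -0.0082 and -0.0015 over all genes tested. Of 7 related peptide genes none passed the filter, and Nmb (67 cells) and Adm (48 cells) were the most frequent.

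The machinery that cuts and stores peptides was widespread. All 11 genes of that list were found in at least 5% of neurons, from Pcsk1 in 17.3% to Pcsk1n, an inhibitor of convertases, in 87.3%. Pcsk2, a convertase that cuts precursors, was in 67.3%, Cpe, which trims the cut ends, in 74.9%, and Pam, which amidates peptide ends, in 68.2%. The granule proteins Scg2, Scg3, Scg5, Chga, Chgb and Vgf were in 81.3%, 66.0%, 74.3%, 55.6%, 64.6% and 21.6%. Between Nos1-only and Chat-only cells 2 of 11 were called, both higher in Chat-only cells, namely Chgb (log2 difference -1.69) and Pcsk2 (-0.78). Between Etv1-only and Bnc2-only cells Chgb (-1.61), Pcsk2 (-0.89) and Cpe (-0.44) were higher in Bnc2-only cells and Pcsk1n (0.81) in Etv1-only cells. Among high cells, Pcsk1 stood at 3.40 UMIs per 10000 in those high for Sst with Calcb or Grp and at 2.76 in those high for Grp and Calcb without Nmu. It stood at 0.228 in those high for Nmu and Calcb, where Pcsk2 was found in 30 of 30.

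Of the 7 sensory marker genes tested between Nos1-only and Chat-only cells, Nog (-1.27, limma adjusted p = 0.0414) and Calb2 (-1.85, 0.0021), which encodes calretinin, were higher in Chat-only cells. Of the 6 tested between Etv1-only and Bnc2-only cells, Calb2 (-1.77, 0.0018) was higher in Bnc2-only cells. Calb2 was found in 56.2% of neurons, Htr3a in 38.9%, Cux2 in 10.97% and Htr3b in 9.81%. Of the transmitter genes, Vip, Gal, Npy and Cartpt were higher in Nos1-only and Etv1-only cells, with log2 differences of 3.58, 5.33, 3.43 and 2.78 in the first contrast and 3.41, 4.26, 2.41 and 3.97 in the second. Slc18a3, Slc5a7 and Penk were higher in Chat-only cells (-1.56, -1.12 and -1.65). In the second contrast Nos1 was higher in Etv1-only cells (4.62), and Chat, Slc18a3, Slc5a7 and Tac1 were higher in Bnc2-only cells (-1.87, -1.45, -0.92 and -2.14).

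Other genes followed the members across cells to different degrees. Likeness was the mean over 3 mice of the correlation across the cells of a mouse of ln(1 + UMIs per 10000), over 12367 genes found in at least 2% of cells. The cells of a mouse share a library and differ in depth, so these values are descriptions. The genes most like Nmu were Gpr149 (mean r 0.60), Cbln2 (0.59) and Nog (0.58). Those most like Calcb were Nmu (0.52), Mt3 (0.51) and Grin3a (0.51), and those most like Calca were Calcb (0.38), Galr1 (0.32) and Rab27b (0.31). Grp was followed by Mt3 (0.39), Sncg (0.39) and Nefl (0.37). Sst (Avpr1a 0.25, Npy2r 0.24, Myrip 0.22) and Cck (Mgat4c 0.27, Scgn 0.23, Pkib 0.21) had no close match. For Cck and Scgn the value was 0.56 in mouse 1 but 0.064 and 0.075 in mice 2 and 3. For Sst it was 0.037 with Npy2r in mouse 1 and 0.044 with Myrip in mouse 3. With rank (Spearman) correlation, 3 of the 3 genes were kept for Nmu and Calca, 2 for Calcb and Cck, 1 for Grp and 0 for Sst. Without mouse 1, 3 were kept for Nmu and Calcb, 2 for Calca and Grp, 1 for Sst and 0 for Cck.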

How the data were processed

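Members and gene lists were chosen with earlier results of these data known. The authors aligned and counted reads with Cell Ranger (mm10 per the labels, version and annotation not given in the sources used here), filtered cells by genes and mitochondrial share, removed some genes and deposited neurons as natural log values, ln(1 + UMIs per 10000). Whole UMIs were recovered for 100% of 6435281 values (tolerance 1e-06). The deposited unit being a log, summed UMIs were tested with limma 3.58.1 (trend) in R 4.3.3 on log2(CPM + 10), at least 10 mean CPM, Benjamini-Hochberg over all genes, with the mouse as block because the classes compared come from the same animals. Replicates are separate mice.

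Shares have exact Clopper-Pearson intervals and pair counts exact Poisson intervals, at 95%, covering counting error only. Where a count of 0 is said to allow a share, that limit is 3 divided by the number of cells. Total UMIs were 1526256, 10358118 and 6412495 in mice 1, 2 and 3. Doublets were not called here. Positions and sequences are from GENCODE M21 on GRCm38, which holds 32063 of the 33353 symbols. It may not be the authors' annotation. Named genes were all 6 members, listed genes in at least 5% of cells, and for each member the 3 genes of highest mean correlation (at least 0.2, positive in each mouse). Further listed genes were named after their values were seen. Scripts used Python 3.11.15, numpy 2.4.6 and scipy 1.17.1, and were tested on simulated data. Alternatives were other UMI limits, thinning, cell filters, pseudocounts, no filter, voom, no block, rank correlation and each mouse left out.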

Additional observations from a re-analysis of the deposited data

How the results depend on the processing

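Shares and pair ratios depended mostly on the UMIs that make a cell positive. At 2 UMIs the mean share was 4.35% for Nmu, 1.47% for Calca, 9.55% for Calcb and 2.03% for Sst. At 5 UMIs, a limit chosen after seeing the data, it was 2.31%, 0.322%, 5.75% and 1.04% for these genes, 0.457% for Cck and 3.77% for Grp. Thinned to 3000 UMIs it was 6.61% for Nmu and 2.48% for Calca. The ratio of Nmu and Calcb was 6.27 at 2 UMIs, 8.23 at 5 UMIs and 8.91 at 5 UMIs per 10000, and that of Calcb and Grp was 5.38, 6.23 and 5.83. Leaving out smooth muscle-rich or glia-rich cells moved no share by more than its SD. The rule of 7 of 10 smooth muscle markers took 395 cells, more than the 82 muscle-rich ones.

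The number of genes called between Nos1-only and Chat-only cells (241) was 102 with no filter, 392 with limma voom, 47 without the replicate block and 47 with classes set at 2 UMIs, and ran from 5 to 2066 with each mouse left out. Between Etv1-only and Bnc2-only cells (413) it was 167 with no filter, 76 without the replicate block, 76 with classes at 2 UMIs and 254 without cells of 7 smooth muscle markers and glia-rich cells, and ran from 16 to 2765. The highest counts came without mouse 1 and the causes were not tested.

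Between Nos1-only and Chat-only cells the log2 difference of Nmu was -1.53 and called (adjusted p = 0.0379) without the top cells, ran from -1.94 to -0.98 with each mouse left out, and was -0.34 with classes at 2 UMIs (adjusted p = 0.794), where Calca was -0.17. That of Calcb turned to 0.0062 with voom, 1.64 with classes at 2 UMIs, 0.084 without the top cells and 0.22 without mouse 1 (from -0.96 to 0.22). Sst ran from 0.37 to 1.07 and was 0.14 without cells of 7 smooth muscle markers and glia-rich cells. Grp was 2.77 and called with classes at 2 UMIs (adjusted p = 0.0325), where the median of all genes lay at 0.42 and the Chat-only sum of mouse 1 held 2 cells, and it ran from -0.37 to 1.67. Between Etv1-only and Bnc2-only cells Nmu turned to -0.29 without cells of 7 smooth muscle markers and glia-rich cells and ran from -0.39 to 0.57. Calcb ran from 0.20 to 1.32, Sst from -2.45 to -2.14 and Grp from 2.36 to 3.32, and Grp was not called with a pseudocount of 1 CPM (4.06), without the replicate block (2.83) or without mouse 3 (2.81). The replicate block changed no other call of a member. The depth of mouse 1 and its 16 Chat-only cells limit what was detectable there.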
